A study of Homo sapiens with 6 samples.

Results

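The S100 genes described here are S100A2, S100A3, S100A4, S100A6, S100A8, S100A9, S100A10, S100A14, S100A16 and S100P. They are 10 of the 64253 genes counted in PC-3 cells, an established human prostate cancer cell line, and they were chosen by symbol from the 21 S100 genes in the tables. RNA was sequenced from 3 samples of PC-3 cells carrying a short hairpin RNA against CdGAP (shCdGAP) and from 3 samples carrying a control shRNA (shCon). CdGAP, encoded by ARHGAP31, switches off the small GTPases Rac1 and Cdc42, and the comparison asks how its depletion alters transcript levels. The methods describe shCdGAP cells as grown from single cells under puromycin after infection and do not say the same of the control cells, so depletion of CdGAP and the choice of a clone cannot be told apart. The methods name the samples as independent without saying what separates them, so the spread between them may be technical, and in bulk RNA fewer expressing cells and less RNA per cell cannot be told apart.

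S100 proteins are small calcium sensors with a pair of EF-hand calcium-binding loops, and most work as dimers. Calcium opens a surface through which the dimer grips target proteins such as annexins, ezrin, non-muscle myosin and p53. Some members are also released from cells and bind receptors such as RAGE (AGER) and TLR4. Most S100 genes lie together on chromosome 1, within the epidermal differentiation complex, and S100P lies alone on chromosome 4. S100A8 and S100A9 are best known from neutrophils and monocytes, and several other members from epithelia and from cancers.

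Short stretches of promoter are shown for the members whose 250 bases upstream of a transcription start hold a TATA box (TATAAA) or an AP-1 motif (TGANTCA), because they set the 2 most changed members, S100P and S100A9, beside S100A8. The sequences are RefSeq's on GRCh38.p14, 5′ to 3′ along the gene, with the motif in capitals.
S100P (chr4:6693838-6693867, plus strand): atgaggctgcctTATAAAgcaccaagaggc
S100A9 (chr1:153357813-153357842, plus strand): tcaggagctgccTATAAAtgccgagcctgc
S100A8 (chr1:153391085-153391114, minus strand): aagcctaaccgcTATAAAaaggagctgcct
S100A4 (chr1:153545820-153545849, minus strand): gcctggctggggTATAAAtaggtcagacct
S100A2 (chr1:153565879-153565908, minus strand): aggagtgggctgTGACTCAcaggcatgtca
S100A3 (chr1:153549466-153549495, minus strand): gggaatcaggagTGAGTCActgggctagca
The TATA boxes start 28 bases before the transcription start in S100P, 29 in S100A8 and S100A9, and 31 in S100A4. The AP-1 motifs start 52 bases before it in S100A2 and 225 bases before it in S100A3. All 10 members matched a promoter, with 14 promoters between them, and both strands were searched. TATAAA was found in 4 members and in 10.7% of all 35116 promoters, and TGANTCA in 2 members and in 6.57% of promoters. A C/EBP motif (TTGCNNAA) was found in 0 members and in 9.05% of promoters. A member counted if any of its promoters held the motif, while the shares count each promoter singly, so these measures are unlike. The motifs found are matches of letters, not binding sites.

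The 3 shCdGAP libraries held 34011175 to 43154039 counted reads and the 3 shCon libraries 33182796 to 42786971. ARHGAP31 fell from 59.2 ± 1.22 CPM (counts-per-million of the library; SD, n = 3) in shCon to 26.8 ± 0.351 CPM (SD, n = 3) in shCdGAP. Library 2 of shCdGAP stood apart from its group. Its counts differed from those of shCdGAP libraries 1 and 3 by a chi-square per degree of freedom of 26.6 and 32.7, against 3.20 between libraries 1 and 3 and 2.58 to 6.89 within shCon. Below, a gene passed the test where its adjusted p from the quasi-likelihood test of edgeR was under 0.01, and was called where its absolute log2 fold change (shCdGAP minus shCon) was also above 1. The log2 fold changes are those of that test, with their standard errors (SE) and 95% confidence intervals, and adjusted p-values are Benjamini-Hochberg values over the 16439 genes tested.

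Of the 10 S100 genes, 9 had enough reads to be tested. S100A3, S100A6 and S100A16 passed higher in shCdGAP and S100A10 and S100P passed lower. Over all genes tested, 46.2% passed, 24.1% higher and 22.0% lower, so 5 of 9 is near the background. S100P was the member called lower, where 4.19% of all genes were called lower. S100A9 and S100A14 had fold changes of a calling size but missed the p threshold, so the number of members called higher was 0, where 8.56% of all genes were called higher. The 3 shCdGAP libraries lay on a single side of the 3 shCon libraries for 8 of the 9 tested members, S100A2 being the exception, and for 67.1% of all genes tested. The median log2 fold change was 0.33 over the 9 tested members and 0.0089 over all genes. The summed level of the 10 members was 1690 to 1700 CPM in shCdGAP and 1410 to 1480 CPM in shCon, most of it from S100A6, S100A16 and S100A10.

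**Figure D1:**
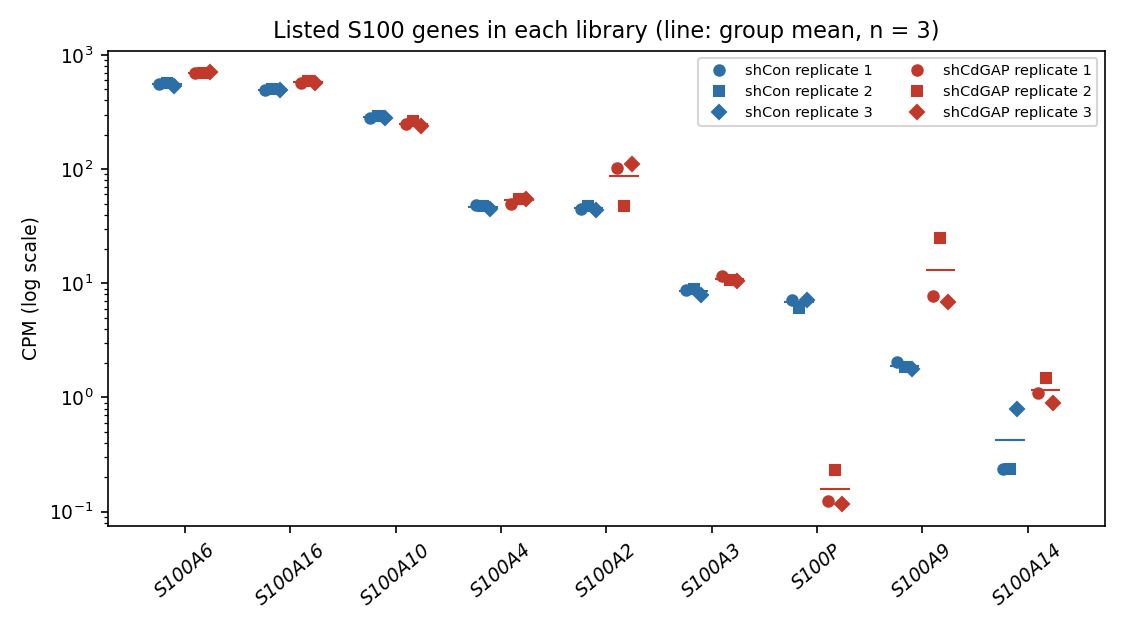
CPM (log axis) of the 9 tested S100 members in each of the 3 shCon (blue) and 3 shCdGAP (red) libraries, with a marker shape per replicate number and lines at the group means. S100P drops from 6.14 to 7.17 CPM in shCon to 0.116 to 0.230 CPM in shCdGAP, and shCdGAP library 2 stands apart from the others for S100A2 and S100A9.

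Per length of counted exon, S100A6 was the most abundant S100 transcript in both groups. Its level was 2291 ± 86.5 TPM (transcripts-per-million, a length-scaled share; SD, n = 3) in shCon, which placed it between rank 26 and rank 34 of all genes, and 2908 ± 23.4 TPM in shCdGAP. S100A11, a family member outside the 10, followed with 1280 ± 9.07 and 1796 ± 32.4 TPM, then S100A16 with 1167 ± 21.1 and 1378 ± 45.0 TPM and S100A10 with 735 ± 20 and 656 ± 39.0 TPM. These 4 genes made up 92.4% to 92.5% of the S100 TPM in shCon and 90.7% to 91.2% in shCdGAP. In shCon the order then ran S100A4 (183 ± 6.71 TPM), S100A2 (116 ± 5.56), S100A13 (77.4 ± 2.66), S100A3 (35.7 ± 2.56), S100P (21.2 ± 1.77), S100A9 (13.1 ± 0.871) and S100A14 (1.31 ± 0.988). No 2 neighbours in that order overlapped between libraries.

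The shCdGAP order differed in its lower part. S100A2 (223 ± 86.9 TPM) and S100A4 (209 ± 11.2) overlapped, and so did S100A9 (92.1 ± 71.8) with S100A13 (92.6 ± 2.68) and with S100A3 (46.1 ± 2.34). S100A14 was at 3.65 ± 0.952 TPM and S100P at 0.494 ± 0.205 TPM, where it overlapped S100A5 (0.584 ± 0.426). S100A8, with its single read, lay below S100P. The length used for S100P, 1280 bases, includes the exon of a second annotated transcript, so its level per length may be set too low. No member shares exon bases with another gene on its strand.

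**Figure D2:**
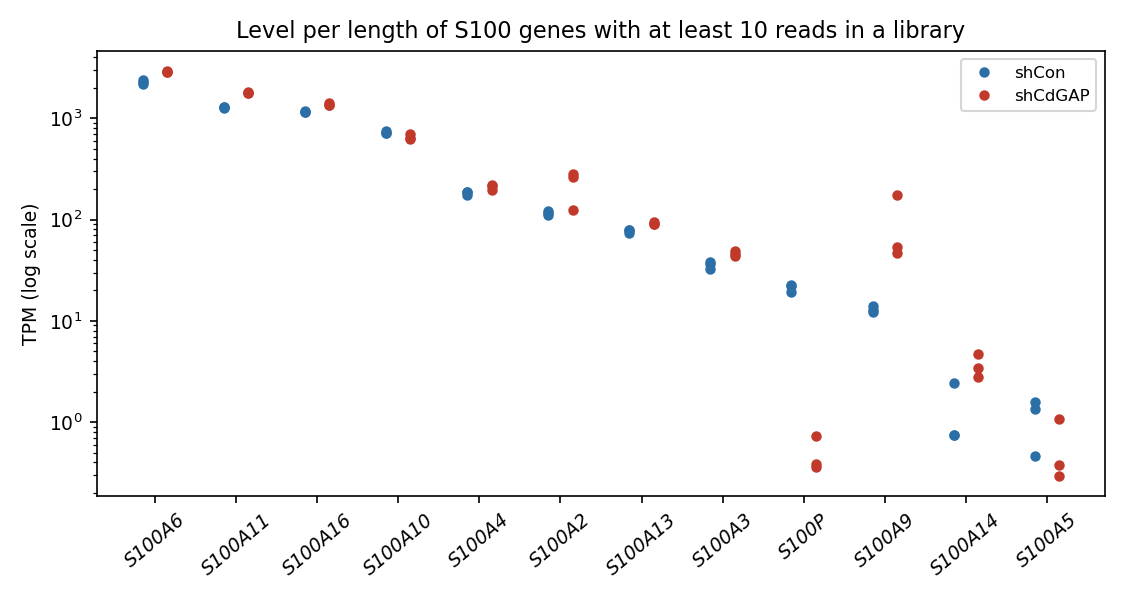
Level per exon length (TPM, log axis) of the S100 genes with at least 10 reads in a library, a point for each of the 3 shCon (blue) and 3 shCdGAP (red) libraries. S100A6, S100A11, S100A16 and S100A10 lead in both groups, while S100P has a mean of 21.2 TPM in shCon and 0.494 TPM in shCdGAP.

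S100P (ENSG00000163993, chromosome 4 from 6693069 to 6697170, GRCh38, plus strand) fell the most. S100P is a secreted member first found in placenta that binds RAGE outside the cell and ezrin inside it. It had 5, 10 and 4 reads in shCdGAP libraries 1, 2 and 3 and 301, 259 and 235 reads in shCon libraries 1, 2 and 3. That is 0.156 ± 0.0635 CPM (SD, n = 3) against 6.81 ± 0.582 CPM (SD, n = 3), 43.5 times lower in shCdGAP. All shCdGAP libraries lay below all shCon libraries, and the highest of them, library 2, had 10 reads. The log2 fold change was -5.38 (SE 0.209, interval -5.86 to -4.91, edgeR quasi-likelihood adjusted p = 1.32e-07). Without shCdGAP library 2 it was -5.79.

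S100A9 (ENSG00000163220, chromosome 1 from 153357854 to 153361027, plus strand) moved the other way. It forms calprotectin with S100A8, a heterodimer that binds zinc and manganese as well as calcium and signals through TLR4 and RAGE. It had 313, 1079 and 235 reads in shCdGAP libraries and 85, 78 and 59 reads in shCon libraries. The means were 13.1 ± 10.1 CPM and 1.89 ± 0.125 CPM (SD, n = 3), a ratio of 6.95. All shCdGAP libraries lay above all shCon libraries, but library 2, at 24.8 CPM, was far above libraries 1 and 3, at 7.72 and 6.84 CPM. Its log2 fold change was 2.80 (SE 0.652, interval 1.14 to 4.47), and the edgeR quasi-likelihood adjusted p of 0.0148 missed the threshold. With the replicate number as a block, a pairing the labels do not state, it was 2.63 (adjusted p = 0.00744), which passes and is called. Without shCdGAP library 2 it was 1.94 (adjusted p = 2.24e-17), and without library 3 it was 3.10 (adjusted p = 0.00994). It still missed the threshold without shCdGAP library 1 (adjusted p = 0.0101), without shCon library 1, 2 or 3 (adjusted p = 0.0455, 0.0417 and 0.0345) and with scarce genes left unfiltered (adjusted p = 0.0582). Leaving out shCdGAP library 2 raised the number of genes passing over the whole series from 7587 to 10035. The edgeR quasi-likelihood adjusted p of ARHGAP31 then went from 8.75e-08 to 1.18e-25. The small p-value of S100A9 in that setting is thus not particular to S100A9.

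S100A8 (ENSG00000143546, chromosome 1 from 153390032 to 153391188, minus strand), the partner of S100A9, was close to undetected. It had 1 read in shCdGAP library 2 and 0 reads in the other 5 libraries, and was not tested. In those 5 libraries a count of 0 allows up to 3 reads, or 0.0711 to 0.0908 CPM, a limit that covers counting error only. With S100A8 set to 3 reads there, S100A9 exceeded it per kilobase of counted exon by at least 182 and 137 times in shCdGAP libraries 1 and 3. In the shCon libraries the same bound was 49.4, 45.3 and 34.3. These bounds hold for the counted lengths, 577 bases for S100A9 and 1006 bases for S100A8. They would be lower if the S100A8 transcript of these cells is shorter than that. Transcripts of S100A9 were thus detected in all 6 libraries and those of its dimer partner, at this depth, by that single read.

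Myeloid markers, whose cells carry much S100A8 and S100A9, were low. Of 8 listed, MPO, CSF3R and FCN1 had no read in any library and PTPRC, the CD45 gene, had at most 1. Their summed level was 1.54 to 1.70 CPM in shCdGAP and 1.00 to 1.35 CPM in shCon. LYZ fell (4, 3 and 1 reads in shCdGAP, 15, 27 and 26 in shCon) and CD68 rose (55, 49 and 42 against 16, 19 and 14), both called. Over all genes tested, 4.19% were called lower and 8.56% higher. The part of these markers in the S100A9 values was not tested.

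S100A14 (ENSG00000189334, chromosome 1 from 153614255 to 153616986, minus strand), an epithelial member with an altered calcium-binding loop, was scarce. It had 44, 64 and 31 reads in shCdGAP libraries and 10, 10 and 26 reads in shCon libraries. The means were 1.15 ± 0.290 CPM and 0.421 ± 0.317 CPM (SD, n = 3), a ratio of 2.74. The groups did not overlap, although shCon library 3, at 0.787 CPM, came near shCdGAP library 3, at 0.902 CPM. Fitted over all libraries, the log2 fold change was 1.54 (SE 0.428, interval 0.56 to 2.52), and the edgeR quasi-likelihood adjusted p of 0.0137 missed the threshold. Without shCon library 3 it was 2.26 (adjusted p = 0.00113), and without shCdGAP library 2 it was 1.32 (adjusted p = 0.00462). With any of the other 4 libraries left out it missed, at adjusted p from 0.0172 to 0.0586.

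S100A2 (ENSG00000196754, chromosome 1 from 153561108 to 153567890, minus strand), a largely nuclear member of basal epithelium that binds p53, was the member whose groups overlapped. It had 4156, 2061 and 3795 reads in shCdGAP libraries and 1893, 2008 and 1437 reads in shCon libraries. Scaled, shCdGAP libraries 1 and 3 were at 103 and 110 CPM, while library 2 was at 47.3 CPM, within the shCon range of 43.5 to 47.6 CPM. Across all libraries its log2 fold change was 0.93 (SE 0.344, interval 0.041 to 1.82), with an edgeR quasi-likelihood adjusted p of 0.0694, a miss. Without library 2 it was 1.22 (adjusted p = 8.23e-23), and it missed with any of the other 5 libraries left out (adjusted p from 0.115 to 0.163). As with S100A9, that small p-value comes from a setting in which many more genes of the series passed. In library 2, S100A2 was thus the lowest and S100A9 the highest of the shCdGAP group.

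Leaving out shCdGAP library 2 changed the counts of members that were higher more than leaving out any other library. Then 7 members passed higher, where 30.0% of 16727 genes did, and S100A2, S100A9 and S100A14 were called higher, where 8.78% were. The cause of the difference of library 2 was not tested.

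S100A6 and S100A16, the most abundant members, rose by small amounts with a narrow spread. S100A6 (ENSG00000197956, chromosome 1 from 153534599 to 153536244, minus strand), calcyclin, binds the protein CACYBP and several annexins. It had 28186, 30466 and 24237 reads in shCdGAP libraries and 23514, 24231 and 17696 reads in shCon libraries. At 700 ± 5.02 CPM against 557 ± 19.5 CPM (SD, n = 3), all shCdGAP libraries were above all shCon libraries. It rose by a log2 fold change of 0.33 (SE 0.0364, interval 0.25 to 0.41, edgeR quasi-likelihood adjusted p = 6.47e-05).

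S100A16 (ENSG00000188643, chromosome 1 from 153606886 to 153613145, minus strand) is a widely expressed member with a single working calcium site per subunit. It had 23190, 25993 and 19711 reads in shCdGAP libraries and 20769, 21321 and 16197 reads in shCon libraries, 581 ± 13.9 against 497 ± 7.63 CPM (SD, n = 3), with no overlap. It rose by a log2 fold change of 0.23 (SE 0.0342, interval 0.15 to 0.30, edgeR quasi-likelihood adjusted p = 0.000463). S100A6 and S100A16 passed under all 12 alternatives run for single genes, which leave out glmTreat. Their log2 fold changes there were 0.29 to 0.36 and 0.20 to 0.25.

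S100A3 (ENSG00000188015, chromosome 1 from 153547329 to 153549372, minus strand), known from the hair cuticle, rose from 8.53 ± 0.591 CPM to 10.9 ± 0.513 CPM (SD, n = 3). Its reads were 466, 469 and 361 in shCdGAP and 366, 380 and 260 in shCon. The groups did not overlap once scaled, the nearest libraries being at 10.5 and 9 CPM. The log2 fold change was 0.35 (SE 0.0813, interval 0.17 to 0.54, edgeR quasi-likelihood adjusted p = 0.00485). It missed the threshold without shCdGAP library 1 (adjusted p = 0.0248) and without shCon library 1, 2 or 3 (adjusted p = 0.022, 0.0135 and 0.0277).

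S100A4 (ENSG00000196154, chromosome 1 from 153543613 to 153550136, minus strand), also called metastasin, binds the non-muscle myosin heavy chain MYH9 and is widely used as a marker of mesenchymal cells. It had 2023, 2384 and 1886 reads in shCdGAP libraries and 2020, 2018 and 1493 reads in shCon libraries, 53.2 ± 2.84 against 47.1 ± 1.62 CPM (SD, n = 3). All shCdGAP libraries were above all shCon libraries, the nearest being at 49.9 and 48.1 CPM. The log2 fold change was 0.18 (SE 0.0513, interval 0.059 to 0.29) with an edgeR quasi-likelihood adjusted p of 0.016, a miss. It passed without shCdGAP library 1 (0.21, adjusted p = 0.00814) and without shCdGAP library 2 (0.14, adjusted p = 0.0033), and missed with any of the other 4 libraries left out (adjusted p from 0.0503 to 0.0959).

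S100A10 (ENSG00000197747, chromosome 1 from 151982915 to 151994390, minus strand) was the abundant member that was lower in shCdGAP. S100A10, or p11, does not bind calcium, and pairs with annexin A2 in a complex that holds plasminogen at the cell surface. It had 10015, 11541 and 8282 reads in shCdGAP libraries and 11727, 12326 and 9257 reads in shCon libraries, 251 ± 12.5 against 284 ± 7.05 CPM (SD, n = 3). All shCdGAP libraries were below all shCon libraries, the nearest being at 265 and 280 CPM. The log2 fold change was -0.18 (SE 0.0432, interval -0.28 to -0.079, edgeR quasi-likelihood adjusted p = 0.00654). It no longer passed in 7 of the 12 alternatives run for single genes, with values of -0.23 to -0.15 over all of them. It did not pass without shCdGAP library 1 or 3 (adjusted p = 0.0257 and 0.0206) and without shCon library 1, 2 or 3 (adjusted p = 0.0156, 0.0252 and 0.0154).

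**Figure D3:**
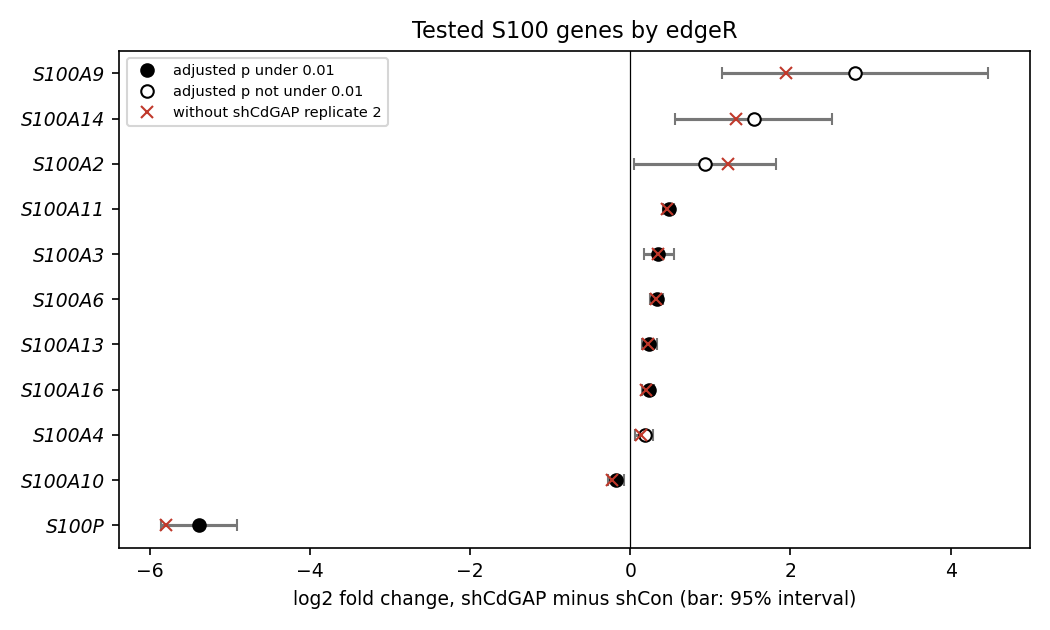
Log2 fold change (shCdGAP minus shCon) of each tested S100 gene with its 95% confidence interval from edgeR, filled where the adjusted p is under 0.01 and open where it is not, with a cross for the value without shCdGAP library 2. S100P lies at -5.38, while the intervals of S100A9, S100A14 and S100A2 are the widest, from 1.14 to 4.47, 0.56 to 2.52 and 0.041 to 1.82.

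Of the 11 other S100 genes, S100A11 and S100A13 had enough reads to be tested and both passed higher, where 24.1% of all genes did. S100A11, which binds annexin A1, had 12149, 13333 and 10399 reads in shCdGAP and 9176, 9206 and 7157 in shCon, and rose by a log2 fold change of 0.48 (SE 0.0307, edgeR quasi-likelihood adjusted p = 2.44e-06). S100A13, which takes part in the release of FGF1, rose from 49.6 ± 1.71 to 58.7 ± 1.26 CPM (SD, n = 3), by 0.24 on the log2 scale (SE 0.0424, adjusted p = 0.00104), and missed the threshold without shCon library 1 (0.20, adjusted p = 0.0115). Of its 2558 exon bases, 34.3% are shared with other genes on its strand, where reads are not counted. S100A5 had 3, 9 and 2 reads in shCdGAP and 11, 13 and 3 in shCon. The remaining 8 had under 10 reads in every library.

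Proteins that S100 proteins bind, or that receive or process their signals, were taken from a list of 25, of which 21 were tested. Of these, 8 passed higher and 5 lower, where 24.1% and 22.0% of all genes did. The median log2 fold change of the 21 was 0.068. ANXA6, PLAT and SUGT1 were called, where 8.56% of all genes were called higher and 4.19% lower. ANXA6, annexin A6, rose from 92.1 ± 1.11 to 246 ± 25.5 CPM (SD, n = 3; log2 fold change 1.42, SE 0.0678, edgeR quasi-likelihood adjusted p = 5.13e-07). PLAT, the tissue plasminogen activator, rose from 8.89 ± 0.327 to 36.7 ± 3.02 CPM (2.04, SE 0.0729, adjusted p = 8.64e-08). SUGT1, a chaperone adaptor that binds S100A6, fell from 52.5 ± 0.303 to 18.1 ± 0.431 CPM (-1.53, SE 0.0435, adjusted p = 3.08e-08). A window of 5 Mb to each side of SUGT1 on chromosome 13 was set after seeing the data. Of the 42 other tested genes in it, 34 also passed lower, where 22.0% of all genes did. The median of the 42 was -1.57.

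Among the receptors, TLR4 had 335, 407 and 278 reads in shCdGAP and 709, 695 and 562 in shCon. It fell by 0.97 on the log2 scale (SE 0.0743, edgeR quasi-likelihood adjusted p = 6.95e-06), with every shCdGAP library below every shCon library, while S100A9 lay above its controls in every library. A window of 5 Mb to each side of TLR4 on chromosome 9 was also set after seeing the data. Of the 54 other tested genes in it, 29 passed lower, where 22.0% of all genes did. The median of the 54 was -0.50. AGER, the gene of RAGE, was scarce, with 20, 23 and 25 reads against 34, 36 and 32, and its log2 fold change of -0.60 missed the threshold (adjusted p = 0.0425). BSG, a receptor of S100A9, was at 327 ± 21.9 CPM in shCdGAP and 316 ± 9.70 CPM in shCon (0.047, adjusted p = 0.459), and its groups overlapped. ANXA2, the partner of S100A10, was at 1310 ± 22.4 CPM in shCdGAP and 1220 ± 26.2 CPM in shCon (0.10, SE 0.034, adjusted p = 0.0304), a miss with all shCdGAP libraries above all shCon libraries. S100A10 and ANXA2 thus lay on opposite sides of their controls.

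Around the S100 genes of chromosome 1, from 151482915 to 154134092, 28 other genes were tested. Of these 7 passed higher, 4 passed lower and 2 were called higher, against 24.1%, 22.0% and 8.56% of all genes. The median log2 fold change of the 28 was 0.0054. FLG-AS1, a long RNA antisense to the filaggrin gene, had 284, 242 and 198 reads in shCdGAP and 104, 101 and 70 in shCon (log2 fold change 1.38, SE 0.131, edgeR quasi-likelihood adjusted p = 2.53e-05). LCE3D, a late cornified envelope gene, had 36, 41 and 26 reads in shCdGAP and 0 in each shCon library, so it was at least 11.1 times higher with shCon set to 3 reads per library (adjusted p = 3.62e-05). FLG-AS1 can be told from its partner strand only if the strand setting of the counting fits the kit, and LCE3D has close paralogs with which reads may be shared. Within 250 kb of S100P on chromosome 4, 9 other genes were tested. Of these 2 passed higher, 6 passed lower and 0 were called lower, against 24.1%, 22.0% and 4.19% of all genes. The median log2 fold change of the 9 was -0.41. LINC02482, a long non-coding RNA, was called higher there, where 8.56% of all genes were called higher. It had 51, 50 and 41 reads in shCdGAP and 16, 15 and 25 in shCon (1.31, SE 0.276, edgeR quasi-likelihood adjusted p = 0.00312). It missed the threshold without shCdGAP library 1 (adjusted p = 0.0144) and without shCon library 1 or 2 (adjusted p = 0.02 and 0.0184).

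**Figure D4:**
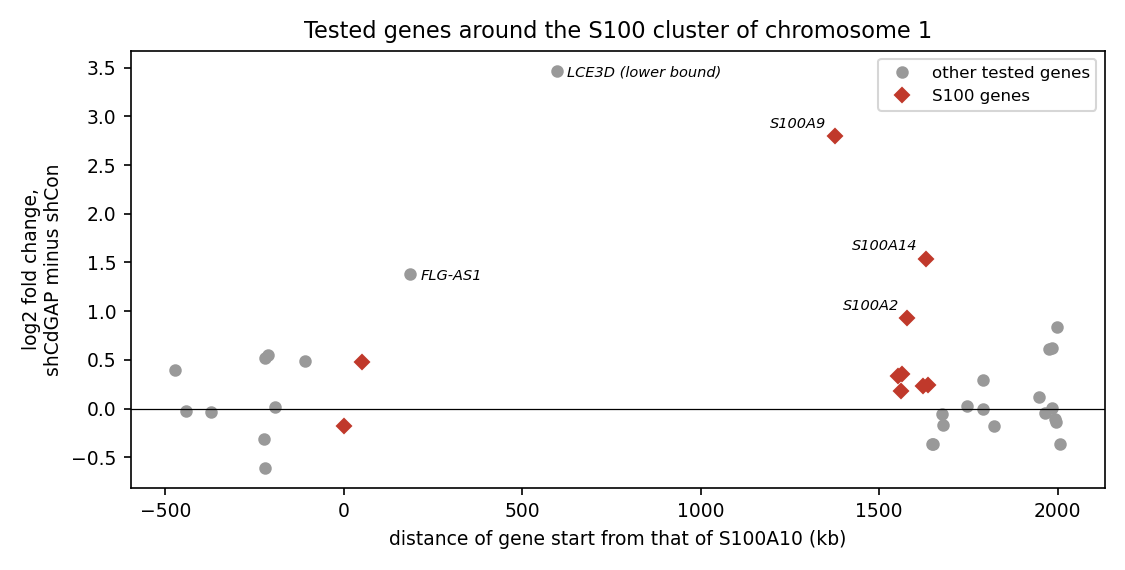
Log2 fold change (shCdGAP minus shCon) of every tested gene around the S100 genes of chromosome 1 against the distance of its start from that of S100A10, in kb, with S100 genes in red and other genes in grey. LCE3D is drawn at its lower bound, and S100A9, S100A14, FLG-AS1 and S100A2 are the highest of the rest. The next gene, in grey at 0.84, lies close to S100A2 at 0.93.

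The pattern of S100P over the 6 libraries was compared with those of the 10282 genes whose average log2 CPM reached 3, as the Euclidean distance between centred log2 CPM values. A small constant added to the counts damps the change of scarce genes such as S100P more than that of abundant genes. The nearest were LCN2 (distance 0.95), TINAGL1 (0.97), MUC5B (1.13), SPINK5 (1.31) and ITGB4 (1.51). All were called lower, which follows from choosing genes close to the pattern of S100P. LCN2, an iron-trapping lipocalin of epithelia and neutrophils, had 1769, 4905 and 1376 reads in shCdGAP and 54561, 54538 and 44116 in shCon, a log2 fold change of -4.32. LCN2 also lies on chromosome 9, and a window of 5 Mb to each side of it was set after seeing the data. Of the 128 other tested genes in that window, 89 passed lower, where 22.0% of all genes did. The median of the 128 was -0.55. MUC5B, a gel-forming mucin, had 159, 225 and 136 reads against 11918, 11773 and 8252, a change of -5.95. The values were -5.38 for TINAGL1, a matrix glycoprotein, -3.96 for SPINK5, an inhibitor of skin proteases, and -3.78 for ITGB4, the laminin-binding integrin subunit.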

How the data were processed

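Raw counts per gene were deposited, 1 table per library, from reads aligned to GRCh38 with STAR 2.5.1b. The table headers name featureCounts 1.6.0, Ensembl release 77 and strand-specific counting of read pairs. The methods name featureCounts 1.4.6 and a single-read kit not described as stranded. Reads with several alignments, or shared by genes of a strand, were not counted. Of the 64253 genes, 56105 (87.3%) had a symbol.

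Counts were tested with edgeR 4.0.16 in R 4.3.3 (filterByExpr, TMM, robust quasi-likelihood F test, all 6 libraries, no block), and other steps used Python 3.11.15. CPM uses TMM-adjusted library sizes and TPM the exon length of the tables. SE is the size of the log2 fold change over the root of its F value. Deviations of same-numbered shCdGAP and shCon libraries correlated weakly over 10282 genes (0.12, 0.13 and 0.12 for numbers 1, 2 and 3). Differently numbered libraries gave -0.20 to 0.10. The replicate block rests on this check, not on the labels, and these values do not establish a pairing. Alternatives were DESeq2 1.42.0, other scalings and filters, glmTreat (for counts of genes alone), the block and leaving out each library. The scripts were tested on simulated data.

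Members and lists were chosen with earlier results of these data known. The text names all 10 members, other S100 genes with at least 10 reads in any library, called partners and neighbours, ANXA2, BSG, TLR4 and AGER in any case, and the 5 genes most like the called member with the largest fall. No member was called higher, so none were sought for a rise. Genes named outside these rules are marked, and markers are named as examples, some of them not reported here. A planned test of the S100A9 to S100A8 ratio could not be computed because S100A8 had no reads in 5 libraries.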

Additional observations from a re-analysis of the deposited data

How the results depend on the processing

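The number of members passing higher (3) became 5 without a filter on low counts and 5 with DESeq2, and ranged from 2 to 7 when each library was left out. The number passing lower (2) became 1 with library size alone and 0 with a minimum of 10 reads in every library, and ranged from 1 to 2. The number called higher (0) became 1 without a filter, 1 with the replicate block and 2 with DESeq2, and ranged from 0 to 3. The number called lower (1) became 0 with the minimum of 10 reads, which removes S100P. The replicate block changed no other call among the S100 genes, ARHGAP31, the named partners and neighbours, S100PBP and the genes most like S100P. Over all genes, glmTreat called 658 higher and 340 lower, against 1407 and 689, and the number called lower among members stayed 1. Other scalings moved the median of all genes by at most 0.026. BSG, at 0.047, ranged from -0.02 to 0.065 when each library was left out and changed sign without shCdGAP library 2 (edgeR adjusted p = 0.527). DESeq2 gave S100A9 2.79 (adjusted p = 1.83e-05), S100A14 1.48 (0.00603) and S100A2 0.92 (0.0226). Leaving out exon bases shared on the same strand could not change any member's level, since no member has such bases. Leaving libraries out of the S100A9 to S100A8 ratio was not run, since the ratio could not be computed. The causes of these changes were not tested, apart from the removal of S100P. Depth limits S100A8, S100A14 and S100P in shCdGAP, which rest on at most 64 reads per library.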

Other observations

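Of 8 listed transcription factors that textbooks place at S100A8 and S100A9, 6 were tested. Of these 1 passed higher and 2 passed lower, against 24.1% and 22.0% of all genes. None were called, where 8.56% of all genes were called higher and 4.19% lower. The values named here were chosen after they were seen. By edgeR's quasi-likelihood test, CEBPB rose from 73.4 ± 2.96 to 96.1 ± 2.02 CPM (SD, n = 3), a log2 fold change of 0.39 (adjusted p = 5.57e-05). CEBPD fell from 101 ± 3.55 to 67.3 ± 6.58 CPM (-0.58, adjusted p = 9.15e-05) and NFKB1 from 136 ± 2.94 to 103 ± 10 CPM (-0.41, adjusted p = 0.000696). STAT3 had no read in any library. S100PBP, which encodes a binding protein of S100P and was also chosen after its values were seen, rose from 22.6 ± 0.747 to 31.6 ± 1.23 CPM (SD, n = 3), by 0.48 on the log2 scale (adjusted p = 5.94e-05).

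Other marker lists were measured in the same libraries. Of 5 epithelial markers, EPCAM and KRT19 were called higher and the rest did not pass. Of these, CDH1 lay lower in every shCdGAP library (29.6, 50.5 and 25.4 CPM) than in every shCon library (56.6, 58.4 and 59.8 CPM), with a log2 fold change of -0.72 (edgeR adjusted p = 0.0636). The summed level of the 5 was 972 to 1230 CPM in shCdGAP and 741 to 762 CPM in shCon. The prostate luminal markers KLK3 and KLK2 had no read in any library. Of 12 markers of squamous differentiation, a program of tissues that express many S100 genes, 9 had under 10 reads in every library and 7 of these had none. KRT6A was called higher (50, 53 and 47 reads against 7, 4 and 3). The summed level was 56.4 to 83.7 CPM in shCdGAP and 56.2 to 63.0 CPM in shCon, most of it from SERPINB3 and SERPINB4. SERPINB4 passed higher (log2 fold change 0.90, edgeR adjusted p = 0.000193) and SERPINB3 did not pass (-0.0034, edgeR adjusted p = 0.988). Of 5 fibroblast markers COL1A1, LUM and PDGFRB were called higher, with sums over the 5 of 334 to 343 and 301 to 307 CPM. Most of both sums was COL1A2, at 279 ± 3.45 CPM in shCdGAP and 286 ± 3.23 CPM in shCon (SD, n = 3). COL1A2 did not pass (log2 fold change -0.036, edgeR adjusted p = 0.356). Of 3 endothelial markers 1 was tested and did not pass, with sums of 2.44 to 6.06 and 5.69 to 5.84 CPM. Over all genes tested, 8.56% were called higher and 4.19% lower. The part of these markers in the S100 values was not tested.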
